A study of Homo sapiens with 8 samples.

Results

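The 10 genes described here are markers of young neurons, taken by symbol from the array's gene table: DCX, MAP2, TUBB3, STMN2 and DPYSL3 of the neuronal cytoskeleton, NCAM1 and L1CAM of cell adhesion, SYT4 and VSNL1 of vesicles and calcium sensing, and the motor neuron transcription factor gene ISL1. All 10 were among the 18732 genes tested. They were chosen as a list and not by their values, although results of these data were known when the list was drawn up. The arrays were Affymetrix exon arrays hybridised with RNA of NTera2/D1, an established human line of embryonal carcinoma whose stem-cell-like cells differentiate under retinoic acid (RA). The 4 groups were cells with a small interfering RNA against RNF20 (siRNF20) given 10 µM RA, cells with an RNA against the bacterial gene LacZ (siLacZ, the control) given RA, siRNF20 cells given the solvent DMSO, and siLacZ cells given DMSO, all for 72 h. RNF20 is a ligase that puts ubiquitin on histone H2B. Each group held biological duplicates of the one line, numbered GF117 and GF120, and the small interfering RNA acts for a time and leaves some RNF20 RNA.

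A neuron that has left the cell cycle builds a new cytoskeleton before it makes synapses. Doublecortin, MAP2 and class III beta-tubulin bind or form its microtubules, STMN2 and DPYSL3 act in the growth cone, and NCAM1 and L1CAM hold axons together. SYT4 and VSNL1 belong to secretory vesicles and to calcium signalling, and ISL1 specifies motor and sensory neurons. NTera2 cells are known to give rise to neurons under RA only over weeks, with young neuron markers ahead of synaptic ones.

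Values are log2 intensities, each the median of a gene's array rows after dim rows were left out, with no depth in counts. The array labelled GF117 RA siLacZ stood apart: its gene values correlated at 0.135 to 0.239 with the 7 other arrays, against 0.908 to 0.975 among those. It is left out of the values below unless they are given for all 8 arrays, so that RA siLacZ is 1 array, taken to vary like the others. RNF20, the gene targeted, lay at 6.27 and 5.89 on the RA siRNF20 arrays, against 8.10 on the RA siLacZ array. It lay at 6.48 and 5.98 on the DMSO siRNF20 arrays, against 8.24 and 8.09 on the DMSO siLacZ arrays. On the array labelled GF117 RA siLacZ, which was left out, RNF20 lay at 6.08, within the range of the siRNF20 arrays and against its label, so that each value from all 8 arrays for RA siLacZ rests in part on that array. Arrays of the same GF number deviated together, and the fit with that number as a replicate block is given where it changes a call. The RNF20 differences of -2.02 in RA and -1.94 in DMSO did not pass over all genes without the block (adjusted p = 0.110 and 0.237) and passed with it (-2.19 and -1.94, adjusted p = 0.00287 and 0.00152). The median log2 intensity of 12 pluripotency genes was 6.98 to 7.64 on the RA arrays, against 9.10 to 9.42 on the DMSO arrays. Over all genes and all 5 comparisons the median difference lay between -0.05 and 0.01.

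RA moved the young neuron markers in opposite directions. In siRNF20 cells DCX, MAP2, NCAM1 and ISL1 rose, DPYSL3, L1CAM and VSNL1 fell, and TUBB3, STMN2 and SYT4 did not pass. In siLacZ cells DCX, NCAM1 and ISL1 rose, DPYSL3 fell, and the other 6 did not pass. SYT4 in siRNF20 cells, and MAP2 and VSNL1 in siLacZ cells, also passed with the replicate block. Of all genes tested 3.92% passed with RA in siRNF20 cells, 1.79% higher and 2.13% lower, against 7 of the 10 markers. In siLacZ cells 3.91% passed, 1.88% higher and 2.03% lower, against 4 of the 10. With the block 10.5% and 9.57% of all genes passed, against 8 and 6 of the 10 markers. The median difference of the 10 markers was 0.40 in siRNF20 cells and 0.15 in siLacZ cells, and that of all genes was -0.03 and -0.05. The sign was the same in both backgrounds for 9 of the 10, all but STMN2. In bulk RNA, a change in the share of cells of a type and a change in RNA per cell cannot be told apart.

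**Figure D1:**
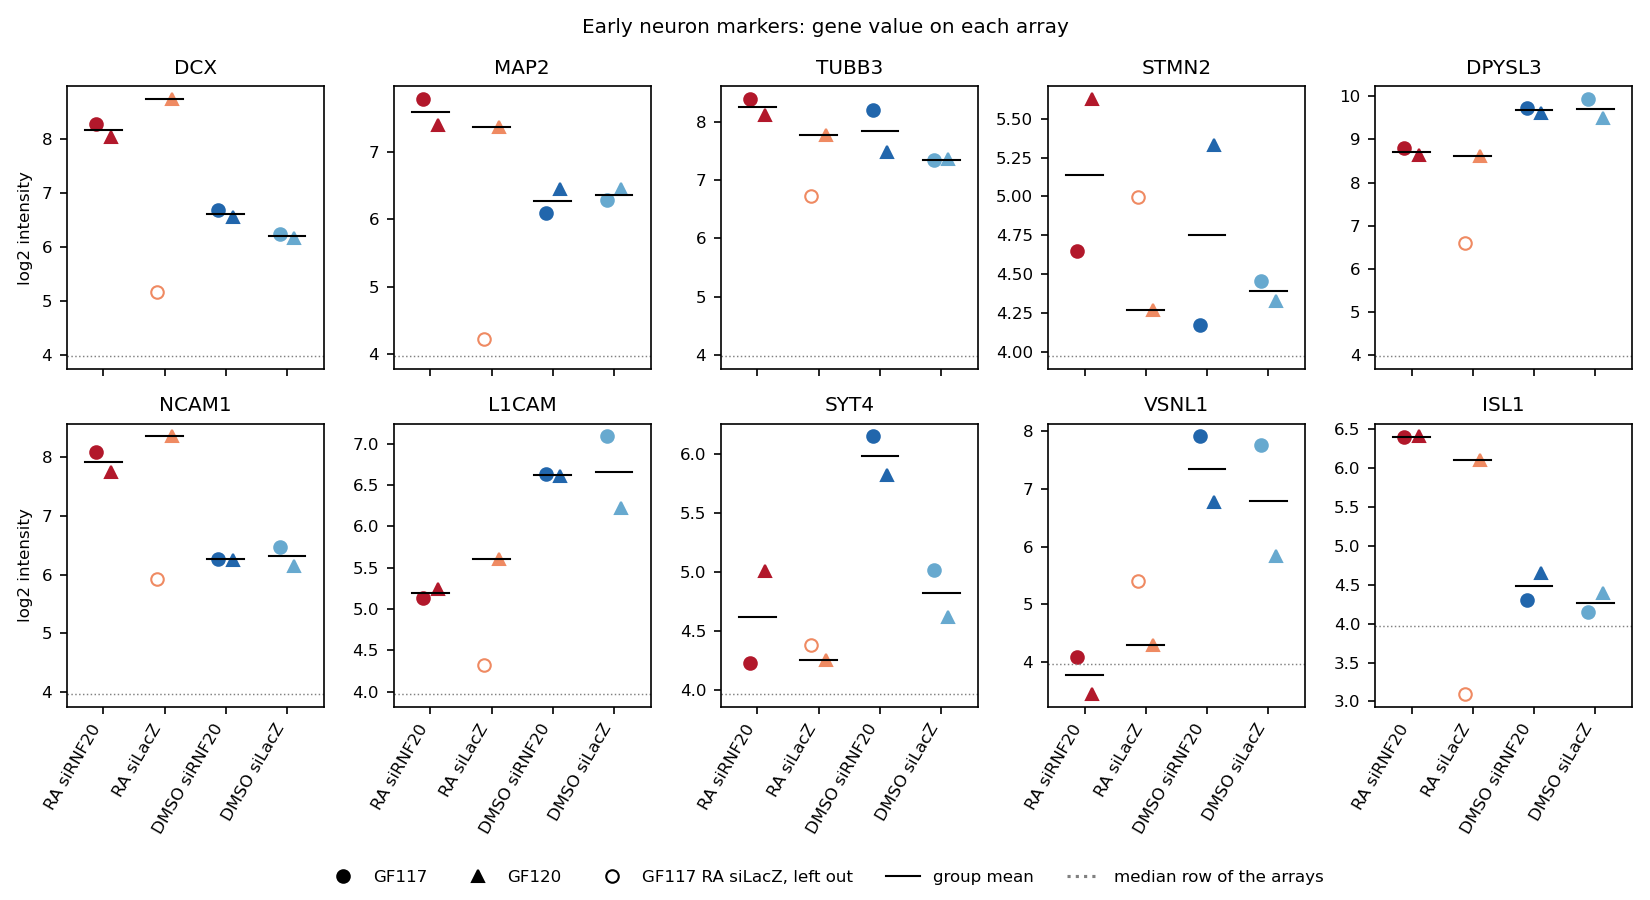
Log2 intensity of each marker (y axis, its own scale per panel) on each array by group (x axis). Circles are GF117 and triangles GF120, bars are group means of the arrays used, the open circle is the array labelled GF117 RA siLacZ, which was left out, and the dotted line is the median row of the arrays, at 3.97. DCX, MAP2, NCAM1 and ISL1 lie higher, and DPYSL3, L1CAM and VSNL1 lower, on the 3 RA arrays used than on the 4 DMSO arrays. The share of all genes that lie apart in this way is not given here.

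Among the cytoskeletal genes DCX, whose product doublecortin binds and stabilises microtubules in migrating young neurons, rose in both backgrounds. Its log2 intensity was 8.29 and 8.05 on the RA siRNF20 arrays, against 6.69 and 6.55 on the DMSO siRNF20 arrays. In siLacZ cells it was 8.75 on the RA array, against 6.25 and 6.16 on the DMSO arrays. Each RA array used lay above each DMSO array. DCX rose 2.93-fold with RA in siRNF20 cells (1.55 on the log2 scale, SE 0.19, adjusted p = 0.00171) from 2 arrays against 2. It rose 5.86-fold in siLacZ cells (2.55 on the log2 scale, SE 0.23, adjusted p = 0.000410) from 1 array against 2. When all 8 arrays were used, none of the 10 markers passed in either background, and the DCX difference in siLacZ cells was 0.76. That fit takes the array labelled GF117 RA siLacZ into the spread of every comparison. Its share of all genes passing is not given here.

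MAP2, a microtubule-associated protein of dendrites, stood at 7.78 and 7.39 on the RA siRNF20 arrays, against 6.09 and 6.44 on the DMSO siRNF20 arrays. It stood at 7.36 on the RA siLacZ array, against 6.28 and 6.44 on the DMSO siLacZ arrays. The RA and DMSO arrays did not overlap in either background. The increase in siRNF20 cells was 1.32 on the log2 scale (SE 0.22, adjusted p = 0.0106), and the difference in siLacZ cells was 1.00 (SE 0.27, adjusted p = 0.0898), or 0.98 with the replicate block, where it passed (adjusted p = 0.0322). In siLacZ cells it turned to -0.54 when all 8 arrays were used.

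TUBB3, which encodes the beta-tubulin isotype used to stain young neurons, lay well above the median row in every group. It read 8.40 and 8.12 on the RA siRNF20 arrays, against 8.21 and 7.48 on the DMSO siRNF20 arrays, which overlap. It read 7.77 on the RA siLacZ array, against 7.34 and 7.37 on the DMSO siLacZ arrays. The difference was 0.41 in each background, with 95% intervals of -0.14 to 0.97 in siRNF20 cells and -0.26 to 1.09 in siLacZ cells, so that a 2-fold increase lay outside the interval in siRNF20 cells and inside that in siLacZ cells. The siLacZ value was -0.11 from all 8 arrays.

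STMN2, a tubulin-binding phosphoprotein of the growth cone, was dim throughout, and 2 of its 10 rows were brighter than the median row. It read 4.65 and 5.63 on the RA siRNF20 arrays, against 4.17 and 5.33 on the DMSO siRNF20 arrays. It read 4.27 on the RA siLacZ array, against 4.45 and 4.33 on the DMSO siLacZ arrays. Both siRNF20 arrays numbered GF120 were the higher of their pair, and the differences with RA, 0.39 (SE 0.45) and -0.12 (SE 0.55), were smaller than their errors. The 95% intervals ran from -0.62 to 1.40 in siRNF20 cells and from -1.36 to 1.12 in siLacZ cells, so that a smaller change of either sign was not detectable.

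DPYSL3, a collapsin response mediator that couples guidance cues to the growth cone, fell. Its log2 intensity was 8.80 and 8.63 on the RA siRNF20 arrays, against 9.72 and 9.62 on the DMSO siRNF20 arrays. It was 8.61 on the RA siLacZ array, against 9.94 and 9.49 on the DMSO siLacZ arrays. The groups did not overlap, which in siLacZ cells rests on 1 RA array, where 36.7% of all rows kept lay lower. DPYSL3 was 1.94-fold lower with RA in siRNF20 cells (-0.96 on the log2 scale, SE 0.18, adjusted p = 0.0160) and 2.15-fold lower in siLacZ cells (-1.11, SE 0.22, adjusted p = 0.0221). The siLacZ value was -2.11 from all 8 arrays, without passing.

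The adhesion genes moved apart. NCAM1, the neural cell adhesion molecule, read 8.09 and 7.74 on the RA siRNF20 arrays, against 6.27 and 6.25 on the DMSO siRNF20 arrays. It read 8.35 on the RA siLacZ array, against 6.47 and 6.15 on the DMSO siLacZ arrays. NCAM1 rose 3.15-fold in siRNF20 cells (1.66 on the log2 scale, SE 0.21, adjusted p = 0.00219) and 4.10-fold in siLacZ cells (2.04, SE 0.26, adjusted p = 0.00223). As for DCX, the RA siLacZ array was the highest. The difference in siLacZ cells was 0.83 from all 8 arrays.

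L1CAM, an axonal adhesion molecule of the immunoglobulin family, went the other way. It read 5.13 and 5.25 on the RA siRNF20 arrays, against 6.63 and 6.61 on the DMSO siRNF20 arrays. It read 5.60 on the RA siLacZ array, against 7.09 and 6.22 on the DMSO siLacZ arrays. The 2 DMSO siLacZ arrays differed by nearly as much as RA did there. L1CAM was 2.70-fold lower with RA in siRNF20 cells (-1.43 on the log2 scale, SE 0.29, adjusted p = 0.0238), and its difference in siLacZ cells was -1.05 (SE 0.35, adjusted p = 0.160), or -1.56 with all 8 arrays.

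Of the vesicle and calcium genes VSNL1, a neuronal calcium sensor, had the largest difference of the 10 markers in siRNF20 cells. It read 4.09 and 3.45 on the RA siRNF20 arrays, against 7.91 and 6.77 on the DMSO siRNF20 arrays. It read 4.30 on the RA siLacZ array, against 7.75 and 5.84 on the DMSO siLacZ arrays. On the RA arrays it lay near the median row of the arrays, at 3.97, and with an offset of 16 added before the logarithm the siRNF20 difference below was -2.54. VSNL1 was 11.9-fold lower with RA in siRNF20 cells (-3.57 on the log2 scale, SE 0.58, adjusted p = 0.00803). In siLacZ cells the difference was -2.50 (SE 0.71, adjusted p = 0.0969), or -1.94 with all 8 arrays. It was -1.88 with the replicate block and passed (adjusted p = 0.00519). The GF117 array was the brighter in all 3 groups with a pair of arrays.

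SYT4, a synaptotagmin of secretory vesicles, was dim. It read 4.24 and 5.01 on the RA siRNF20 arrays, against 6.15 and 5.82 on the DMSO siRNF20 arrays. It read 4.26 on the RA siLacZ array, against 5.02 and 4.62 on the DMSO siLacZ arrays. The DMSO siRNF20 arrays were the highest of the 7. The difference with RA was -1.36 in siRNF20 cells (SE 0.33, adjusted p = 0.0583) and -0.56 in siLacZ cells (SE 0.41, adjusted p = 0.578), so that neither passed. The siRNF20 value passed at the same size with the replicate block (adjusted p = 0.0166). From all 8 arrays the siLacZ value was -0.50.

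ISL1, the LIM homeodomain factor of motor neurons, lay near the median row in DMSO and well above it in RA. It read 6.40 on both RA siRNF20 arrays, against 4.31 and 4.65 on the DMSO siRNF20 arrays. It read 6.10 on the RA siLacZ array, against 4.14 and 4.39 on the DMSO siLacZ arrays. ISL1 rose 3.80-fold in siRNF20 cells (1.92 on the log2 scale, SE 0.26, adjusted p = 0.00319) and 3.56-fold in siLacZ cells (1.83, SE 0.32, adjusted p = 0.0130). ISL1 is also known in mesoderm and heart progenitors, so that it is not a marker of neurons alone. Its difference in siLacZ cells was 0.32 from all 8 arrays.

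**Figure D2:**
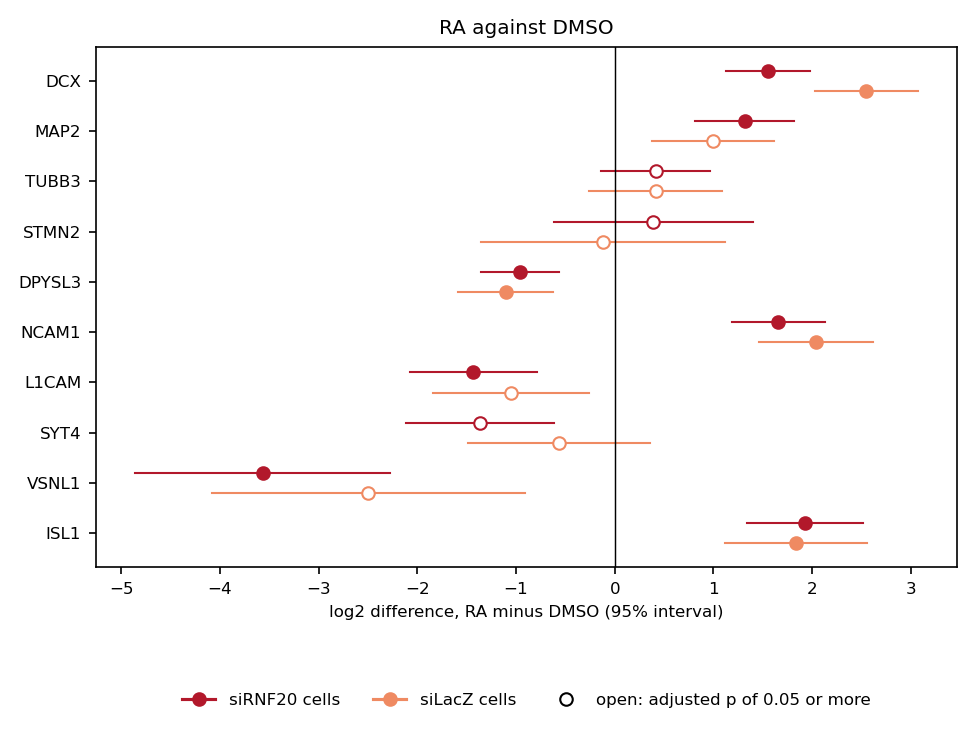
Log2 difference between RA and DMSO (x axis) for each marker (y axis) in siRNF20 cells and in siLacZ cells, with 95% intervals. Filled points passed at an adjusted p under 0.05; without the replicate block, DCX, NCAM1, ISL1 and DPYSL3 passed in both backgrounds, and MAP2, L1CAM and VSNL1 in siRNF20 cells.

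Calls rested on few arrays. In siRNF20 cells, leaving out single arrays ended the calls of L1CAM (adjusted p from 0.0607 to 0.134 when any 1 of the 4 siRNF20 arrays was left out), DPYSL3 (0.0667 without the GF120 RA siRNF20 array, 0.130 and 0.0802 without the GF117 and GF120 DMSO siRNF20 arrays), MAP2 (0.0528 without the GF117 RA siRNF20 array, 0.111 without the GF117 DMSO siRNF20 array) and VSNL1 (0.0507 without the GF117 DMSO siRNF20 array). Without that last array 3 of the 10 markers passed. In siLacZ cells the calls of DPYSL3 (0.107) and ISL1 (0.0682) ended without the GF117 DMSO siLacZ array, which left 2 markers.

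The rows of a gene on an exon array sample different stretches of its transcripts, so that they show whether a change runs along the gene; rows share their RNA and are not replicates. Of 198 rows of the 10 markers 168 were brighter than the median row. All 14 rows of DCX lay higher on both RA siRNF20 arrays than on both DMSO siRNF20 arrays, as did 30 of 33 rows of MAP2, 25 of 28 of NCAM1 and 8 of 10 of ISL1. Over all 277621 rows kept on the array 17.0% lay higher in this way and 22.2% lower. All 6 rows of VSNL1 lay lower, as did 22 of 23 of DPYSL3 and 24 of 31 of L1CAM. On the lone RA siLacZ array 14 of 14 rows of DCX, 32 of 33 of MAP2, 27 of 28 of NCAM1 and 9 of 10 of ISL1 lay above both DMSO siLacZ arrays, against 34.8% of all rows. All 6 rows of VSNL1, 21 of 23 of DPYSL3 and 28 of 31 of L1CAM lay below them, against 36.7% of all rows.

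**Figure D3:**
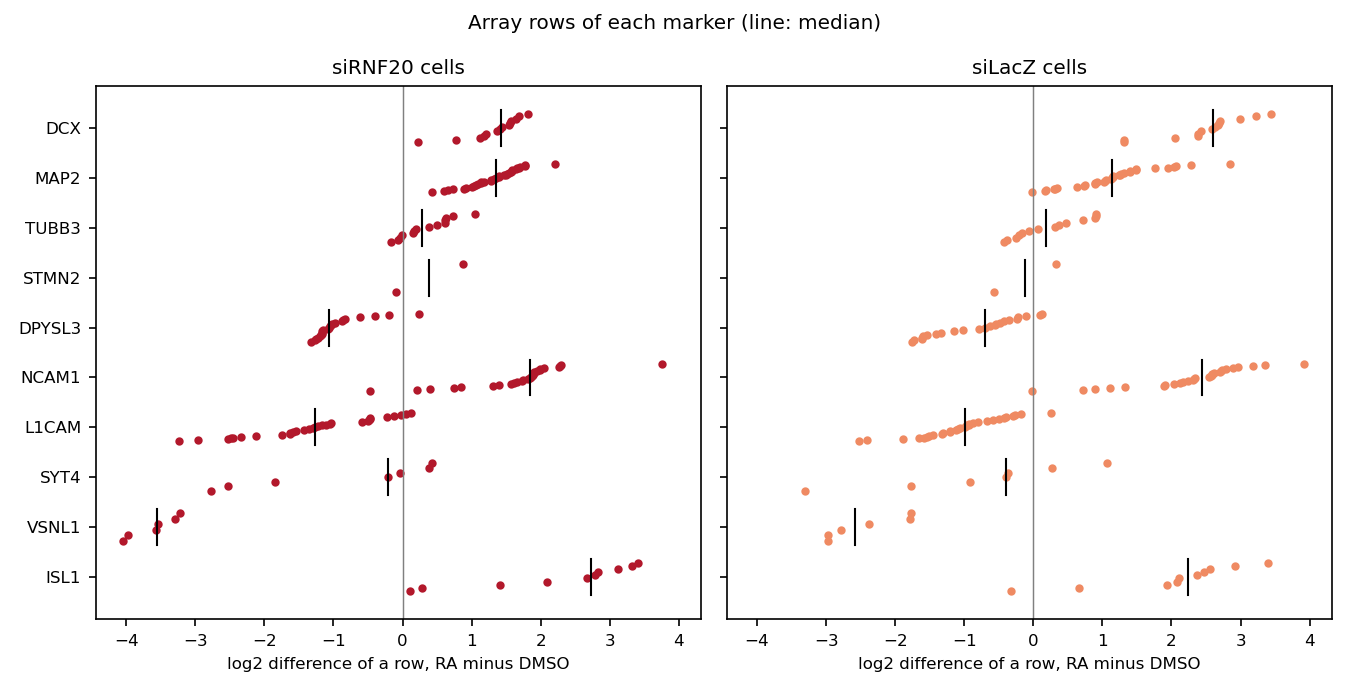
Log2 difference between RA and DMSO (x axis) of each array row (points) of each marker (y axis), in siRNF20 cells on the left and siLacZ cells on the right, with the median row as a line. Rows of DCX, MAP2, ISL1 and VSNL1 lie on one side of 0 in siRNF20 cells, while those of SYT4 fall into a lower and a flat set.

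Rows of one gene differed in size. NCAM1 rows ranged from -0.46 to 3.76 in siRNF20 cells with a median of 1.85, and L1CAM rows from -3.24 to 0.13 with a median of -1.27. The brightest L1CAM rows had means of 10.60, 8.07, 7.98 and 7.90. They differed by 0.13, -0.02, 0.05 and -0.13 in siRNF20 cells, while the next, at 7.81, differed by -1.54. The L1CAM fall thus did not run along the whole gene. ISL1 rows had a median of 2.73 and ranged from 0.11 to 3.40, so that the gene value of 1.92 is below most of its rows. In siLacZ cells DPYSL3 rows ranged from -1.75 to 0.13. Their median of -0.70 was a smaller fall than the gene value of -1.11 there. For SYT4, 3 of 7 rows lay lower on the RA siRNF20 arrays (-2.78, -2.53 and -1.85), and the median row difference was -0.21. Its brightest rows, with means of 6.73 and 6.03, differed by -0.21 and 0.43. With a stricter filter on dim rows the SYT4 gene value was 0.11, in place of -1.36. For TUBB3 7 of 14 rows lay higher and 1 lower with RA in siRNF20 cells.

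No marker passed for RNF20 depletion. With siRNF20 against siLacZ, 0 of the 10 markers passed limma's test in RA, where 0.0107% of all genes did, and 0 in DMSO, where 0% did. At an unadjusted p under 0.05 there was 1 marker in RA (DCX) and 1 in DMSO (SYT4), beside 1485 and 519 of all genes. With the replicate block no marker passed either, while 232 genes (1.24%) passed in RA and 1 in DMSO. In RA the DCX difference was -0.58 (95% interval -1.10 to -0.06, adjusted p = 0.586), that of NCAM1 -0.43 (-1.01 to 0.15) and that of VSNL1 -0.53 (-2.11 to 1.06). Those of MAP2 and ISL1 were 0.22 and 0.31, and the widest interval among the other markers, that of STMN2, ran from -0.37 to 2.11. From all 8 arrays the siRNF20 differences in RA of DCX, NCAM1 and L1CAM turned to 1.21, 0.81 and 0.14.

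In DMSO SYT4 had the largest difference between siRNF20 and siLacZ cells. It was 1.16 (95% interval 0.42 to 1.91, adjusted p = 0.9997). TUBB3 differed by 0.49 (-0.06 to 1.04) and DCX by 0.42 (-0.01 to 0.84). DPYSL3, L1CAM, NCAM1 and MAP2 lay between -0.09 and -0.03, with the intervals of DPYSL3 (-0.44 to 0.35) and NCAM1 (-0.52 to 0.42) the narrowest. For these genes a change of 2-fold lay outside the interval.

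**Figure D4:**
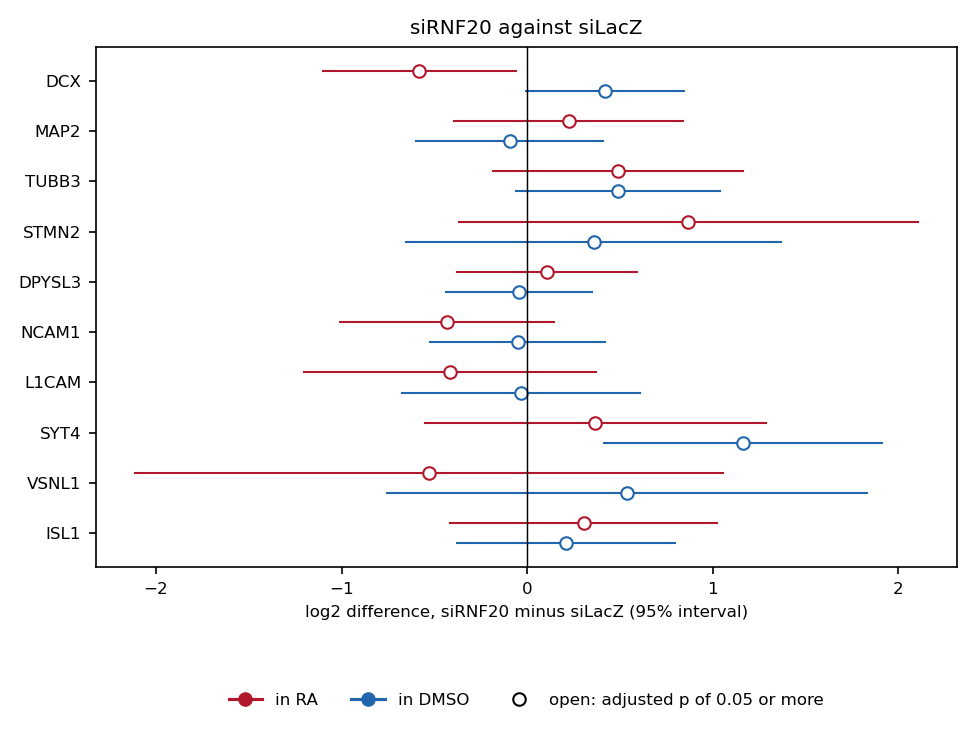
Log2 difference between siRNF20 and siLacZ cells (x axis) for each marker (y axis) in RA and in DMSO, with 95% intervals. All points are open, since none passed at an adjusted p under 0.05; SYT4 in DMSO lies farthest to the right, at 1.16.

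The response to RA was also compared between the backgrounds directly, as the RA difference in siRNF20 cells minus that in siLacZ cells. None of the 10 markers and 0 of all genes (0%) passed limma's test, with 1 marker and 737 genes at an unadjusted p under 0.05. The block gave calls for 0 markers and 4 genes. The value of DCX was -0.999 (95% interval -1.67 to -0.33, adjusted p = 0.950), from a 2.93-fold increase in siRNF20 cells and a 5.86-fold one in siLacZ cells. It rests on the lone RA siLacZ array, and it was 0.79 from all 8 arrays. VSNL1 stood at -1.07 (-3.12 to 0.98), SYT4 at -0.80 (-1.98 to 0.39), L1CAM and NCAM1 at -0.38 each. TUBB3 (0.00), ISL1 (0.09) and DPYSL3 (0.15) were nearest to 0, with intervals up to 0.87, 1.02 and 0.77.

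The counts of related genes stand against the 3.92% of all genes that passed with RA in siRNF20 cells and the 3.91% in siLacZ cells. Those with the replicate block stand against 10.5% and 9.57%. Of 30 measured genes for proteins of microtubules and the growth cone 2 rose and 1 fell with RA in siRNF20 cells, and likewise in siLacZ cells (medians -0.05 and 0.01, against -0.03 and -0.05 over all genes). These were DPYSL5, a relative of DPYSL3 (1.84 in siRNF20 cells and 1.56 in siLacZ cells), the alpha-tubulin gene TUBA1A (0.86 and 1.16) and DCLK1, the doublecortin-like kinase (-1.69 and -2.15). Of 30 closest paralogs of the markers 2 rose and 2 fell in siRNF20 cells, and 2 rose and 1 fell in siLacZ cells (medians 0.02 and 0.17). The lists share genes: DPYSL5 and DCLK1 are counted in both of these, and NRCAM among the paralogs and the adhesion genes below. With the replicate block 6 rose and 2 fell of the microtubule and growth cone list in each background, and of the paralogs 4 rose and 4 fell in siRNF20 cells and 5 rose and 2 fell in siLacZ cells. Of the paralogs that passed, DCLK1 fell where DCX rose, and DPYSL5 rose where DPYSL3 fell. Most paralogs, 26 in siRNF20 cells and 27 in siLacZ cells, did not pass. NRCAM, of the L1 family, rose (1.48 and 2.21) while L1CAM fell in siRNF20 cells. DCLK3 fell in siRNF20 cells (-1.40, SE 0.30).

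Of 18 neural adhesion genes 3 rose and 2 fell in siRNF20 cells, and 5 rose and 2 fell in siLacZ cells (medians 0.27 and 0.26). Beside NRCAM, the axonal contactin gene CNTN1 rose by 1.78 and 2.07 and CADM3 by 1.51 and 2.13, while the GPI-anchored THY1 fell (-1.34 and -1.44), as did CNTNAP2 (-0.94 and -1.21). CADM1 (1.37) and the neuroligin gene NLGN1 (1.196) passed in siLacZ cells. With the block 5 rose and 3 fell in siRNF20 cells, and the counts in siLacZ cells were the same. Of all genes 10.5% and 9.57% passed with it. Of 31 genes of synaptic vesicles and calcium sensors 0 rose and 2 fell in siRNF20 cells, and 0 rose and 1 fell in siLacZ cells (medians -0.17 and -0.28). UNC13A, which primes vesicles, fell (-1.54 and -2.15), and SYT2 fell in siRNF20 cells (-0.88). These counts stand beside 1.79% and 1.88% of all genes that rose and 2.13% and 2.03% that fell. SNAP25, a core fusion protein, stood at 0.84 and 1.00 and did not pass. With the block 2 rose and 7 fell in siRNF20 cells, and 2 rose and 3 fell in siLacZ cells, SNAP25 among those that rose (0.84 and 1.25, adjusted p = 0.0489 and 0.0289).

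Of 32 genes for neuronal transcription factors and RNA-binding proteins 0 passed in either background (medians -0.04 and -0.02). With the replicate block 3 rose and 1 fell in siRNF20 cells, and 2 rose in siLacZ cells, beside 10.5% and 9.57% of all genes. The largest differences, past the threshold with the block but not without it, were those of NOVA1 (0.88) and ONECUT2 (-0.85) in siRNF20 cells and of POU3F2 (1.09) and NOVA1 (0.83) in siLacZ cells. ELAVL3, an RNA-binding protein of postmitotic neurons, stood at -0.43 and -0.58, and ELAVL4 at -0.06 and 0.07. Of REST, the repressor of neuronal genes, and its corepressors 0 of 15 passed (medians 0.15 and 0.07), and with the block 1 rose in siRNF20 cells and 2, RCOR2 and CTDSP2, in siLacZ cells. REST itself differed by 0.23 and -0.11, and the largest differences of that list were CTDSPL (-0.49) and RCOR2 (0.47) in siRNF20 cells and RCOR2 (0.79) and CTDSP2 (0.50) in siLacZ cells. In none of these 6 lists did a gene pass for siRNF20 in RA or DMSO, or for the difference between responses, with the block or without it.

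**Figure D5:**
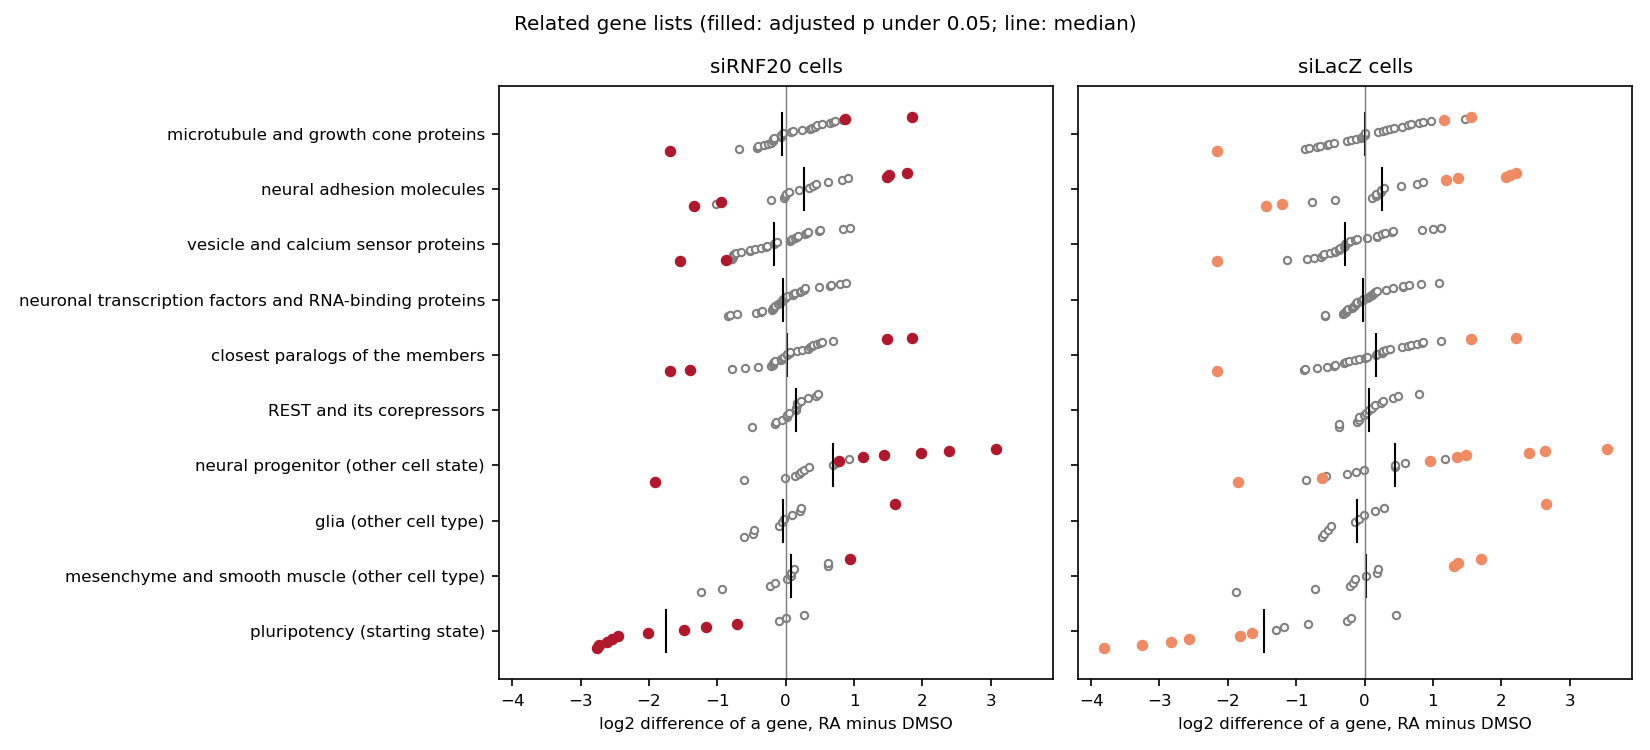
Log2 difference between RA and DMSO (x axis) of each measured gene in 10 lists (y axis), in siRNF20 cells on the left and siLacZ cells on the right. Filled points passed at an adjusted p under 0.05 and lines are medians; pluripotency genes lie lowest (-1.75 and -1.47) and neural progenitor genes highest (0.70 and 0.45).

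Markers of other cell states moved beside the neuron markers, and their part in the result was not tested. Of all genes 3.92% passed with RA in siRNF20 cells and 3.91% in siLacZ cells. With the replicate block these shares were 10.5% and 9.57%. Of 17 neural progenitor genes 6 rose and 1 fell in siRNF20 cells, and 6 rose and 2 fell in siLacZ cells. PAX6, a progenitor transcription factor, rose by 3.08 and 3.54, ZBTB16 by 2.39 and 2.64, DACH1 by 1.98 and 1.48 and CDH2, N-cadherin, by 1.44 and 2.40, while OLIG3 fell (-1.92 and -1.85). The median level of that list was 7.19 to 7.48 on the RA arrays, against 6.25 to 6.58 on the DMSO arrays. Of 10 glial genes only PDGFRA rose (1.60 and 2.65), and the list's median level was 5.85 to 5.97 on the RA arrays, against 5.64 to 6.11 on the DMSO arrays. Of 11 mesenchymal genes COL5A2 rose in siRNF20 cells (0.94), and ACTA2 (1.71), COL5A2 (1.37) and COL1A1 (1.31) rose in siLacZ cells. Of 12 pluripotency genes 9 fell in siRNF20 cells and 6 in siLacZ cells, among them NANOG (-2.76 and -3.82), POLR3G (-2.61 and -2.83) and L1TD1 (-2.54 and -2.57). With the replicate block 9 progenitor genes rose and 2 fell in siRNF20 cells, 7 rose and 3 fell in siLacZ cells, and 9 pluripotency genes fell in siLacZ cells. Of mesenchymal genes 2 then fell in siRNF20 cells and 1 in siLacZ cells. For siRNF20 in RA the block added NANOG (1.10), CRIPTO (1.502), SOX2 (0.82) and VIM (1.05) as higher and PDGFRA (-1.32) as lower. Of all genes 1.24% passed there with the block. None of these lists had a call in DMSO or for the difference.

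Over the 7 arrays the genes whose values ran closest to each marker were found by Pearson's correlation among all genes tested. The 7 arrays fall into RA and DMSO arrays, so that any gene that moves with RA correlates, and these values are a description. For DCX the closest was CDH2 (r = 0.997), followed by AZI1 and MAN2B1; for NCAM1 it was FAM110B (0.999), followed by MEIS1, a HOX cofactor, and NEDD9. For MAP2 they were FZD7 (0.991), NTRK3 and HTR1D, and for ISL1 ITIH5 (0.998), HOXB2 and LEFTY1. Among the markers that fell, DPYSL3 ran with TEAD4 (0.997), EBP and TAFA5, L1CAM with EMB (0.997), ITPR3 and PITPNM2, and VSNL1 with SLC6A9 (0.995), ANKS6 and TBC1D30. TUBB3 ran with STK38L (0.989), RPS6P1 and SLC6A19, STMN2 with DBX1 (0.971), KRT33A and SEZ6L2, and SYT4 with OSTN (0.989), DHCR7 and PPP1R2P1. Among the markers themselves DCX and NCAM1 had the highest correlation (0.98) and DPYSL3 and ISL1 the lowest (-0.97).

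For the markers that passed with RA in siRNF20 cells, the 250 bases before their most upstream RefSeq start are shown, in build GRCh38.p14, with E-box letters CANNTG in capitals. The arrays do not tell which start was used. NCAM1 is named only. DCX, MAP2 and ISL1, which rose there, come before VSNL1, DPYSL3 and L1CAM, which fell there.
DCX, chrX:111412193-111412442, minus strand: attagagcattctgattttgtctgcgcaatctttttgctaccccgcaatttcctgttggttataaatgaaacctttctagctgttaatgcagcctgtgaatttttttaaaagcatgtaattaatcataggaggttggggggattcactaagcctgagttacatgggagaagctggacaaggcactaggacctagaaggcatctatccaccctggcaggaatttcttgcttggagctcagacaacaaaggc
MAP2, chr2:209579082-209579331, plus strand: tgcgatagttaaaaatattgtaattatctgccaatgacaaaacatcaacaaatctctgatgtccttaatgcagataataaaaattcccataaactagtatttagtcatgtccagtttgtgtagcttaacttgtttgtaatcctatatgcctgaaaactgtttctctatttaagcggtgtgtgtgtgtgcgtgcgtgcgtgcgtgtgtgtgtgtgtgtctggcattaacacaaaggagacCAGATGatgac
ISL1, chr5:51383198-51383447, plus strand: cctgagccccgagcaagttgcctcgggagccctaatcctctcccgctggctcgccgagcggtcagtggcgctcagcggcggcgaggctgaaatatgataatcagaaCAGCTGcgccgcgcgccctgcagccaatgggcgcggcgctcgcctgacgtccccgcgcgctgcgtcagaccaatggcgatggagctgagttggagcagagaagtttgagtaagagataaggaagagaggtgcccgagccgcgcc
VSNL1, chr2:17539722-17539971, plus strand: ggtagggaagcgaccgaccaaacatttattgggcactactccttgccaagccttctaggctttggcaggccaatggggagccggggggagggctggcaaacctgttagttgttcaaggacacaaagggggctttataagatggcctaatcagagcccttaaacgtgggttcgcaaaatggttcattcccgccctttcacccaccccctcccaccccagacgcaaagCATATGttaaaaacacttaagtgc
DPYSL3, chr5:147510069-147510318, minus strand: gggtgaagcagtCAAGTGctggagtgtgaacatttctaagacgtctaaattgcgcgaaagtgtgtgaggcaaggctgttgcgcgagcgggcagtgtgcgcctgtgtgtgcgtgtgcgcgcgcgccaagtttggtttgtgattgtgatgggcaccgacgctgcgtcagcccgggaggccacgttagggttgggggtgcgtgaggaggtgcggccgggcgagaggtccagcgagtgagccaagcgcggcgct
L1CAM, chrX:153876015-153876264, minus strand: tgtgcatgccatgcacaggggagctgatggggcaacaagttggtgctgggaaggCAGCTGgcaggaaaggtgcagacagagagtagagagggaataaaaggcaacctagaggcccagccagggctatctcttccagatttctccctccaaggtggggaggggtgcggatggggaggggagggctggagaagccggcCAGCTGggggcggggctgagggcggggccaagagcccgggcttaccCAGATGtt

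E-boxes are bound by the basic helix-loop-helix factors of neurogenesis. The letters CANNTG, which read alike on both strands, stood once in the windows of MAP2, ISL1, VSNL1 and DPYSL3, 3 times in that of L1CAM and not in that of DCX. Among all 35116 windows of this length that RefSeq lists for promoters, 61.8% held them. Of the 16 windows of the 8 markers that have entries 10 held them. The variant CAGCTG, in the windows shown of ISL1 and L1CAM, stood in 14.0% of all windows, and CAGATG (searched on both strands), in those of MAP2 and L1CAM, in 12.2%. Over the 16 windows CAGCTG stood in 4 and CAGATG in 3. AGGTCA on either strand, the core letters of nuclear receptor sites, was in 0 of the 16 windows of the 8 markers that have entries, and in 12.1% of all windows. TATAAA on either strand was in windows of 2 of these markers and in 10.7% of all.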

How the data were processed

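The deposited values are linear intensities of exon array rows. The authors' background correction and normalization are not stated in the labels, and the arrays' medians (17.2 on 7 arrays, 18.4 on the array left out) are nearly alike. Per the labels' protocols, total RNA from biological duplicates was labelled with biotin. Rows were named from the platform's gene table, and those with no symbol or several were left out (354600 of 1384231 rows had 1 symbol). Old symbols were updated through RefSeq. The deposited intensities were taken to log2 and not normalized again. A row was kept if its mean over the 7 arrays exceeded that of the median row (log2 3.97), and each gene was summarised by the median of the rows kept.

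limma 3.58.1 (R 4.3.3) fitted the 4 group means to 7 arrays with an intensity trend. Adjusted p-values are limma's, two-sided, Benjamini-Hochberg over 18732 genes, called under 0.05. Deviations of same-numbered arrays from their group means correlated at 0.364, 0.301 and 0.297 in the 3 pairs of groups with both numbers. The GF number was therefore used as a replicate block in an alternative fit. The labels do not say what the numbers stand for. The fit without the replicate block is the main one, so that its errors, intervals and p-values do not take the pairing into account. The method was tested on simulated data. Alternatives were all 8 arrays, the GF number as a replicate block, an offset of 16, other filters on dim rows, the mean over rows, quantile normalization, no trend, pairwise fits and leaving out each array. Members and lists were chosen with earlier results of these data known; named genes were the 10 markers, RNF20, up to 4 called genes per list and comparison (2 where none was called), and the 3 best correlated genes per marker. All called adhesion genes were named, so that CNTNAP2, CADM1 and NLGN1 go beyond the limit of 4. SNAP25, ELAVL3, ELAVL4, REST and the genes called with the block only were named after their values were seen. Figures used Python 3.11.15 and matplotlib 3.10.9.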

Additional observations from a re-analysis of the deposited data

How the results depend on the processing

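From all 8 arrays, 0 markers passed with RA in siRNF20 cells and 0 in siLacZ cells. The share of all genes passing in that fit is not given here, so that these counts have no share beside them. The number passing ranged from 3 to 7 in siRNF20 cells and from 2 to 5 in siLacZ cells when single arrays were left out of the 7. Markers called in the main fit kept their sign in all alternatives. With the GF number as a replicate block, 8 markers passed in siRNF20 cells and 6 in siLacZ cells: SYT4 in siRNF20 cells (-1.36, adjusted p = 0.0166), and MAP2 (0.98, adjusted p = 0.0322) and VSNL1 (-1.88, adjusted p = 0.00519) in siLacZ cells were added, and the block changed no other call of a marker. Over all genes, 1959 passed with RA in siRNF20 cells under the block against 734 without it, 1792 against 733 in siLacZ cells, 232 against 2 for siRNF20 in RA, 1 against 0 in DMSO and 4 against 0 for the difference. Without the intensity trend 456 genes passed in siLacZ cells, and without single arrays 330 to 733 passed in siRNF20 cells and 312 to 947 in siLacZ cells. For siRNF20 in RA 12 genes passed in the pairwise fit. The L1CAM call in siRNF20 cells also ended without the filter on dim rows (adjusted p = 0.0531), with the stricter one (0.108) and without the intensity trend (0.0514). The trend also decided the DPYSL3 calls (0.0785 and 0.0943 without it). The offset of 16 gave SYT4 a call (-0.95, adjusted p = 0.0407), the mean over rows one to MAP2 in siLacZ cells (1.14, adjusted p = 0.0429) and the pairwise fit one to VSNL1 there (adjusted p = 0.0468).

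The values below did not pass in the main fit and turned sign in an alternative, for a cause that was not tested. From all 8 arrays these were MAP2 (-0.54), STMN2 (0.33) and TUBB3 (-0.11) for RA in siLacZ cells, DCX (1.21), L1CAM (0.14) and NCAM1 (0.81) for siRNF20 in RA, L1CAM (0.0117) and STMN2 (-0.16) for siRNF20 in DMSO, and DCX (0.79), L1CAM (0.13) and NCAM1 (0.86) for the difference. With the replicate block they were DPYSL3 for siRNF20 in RA (-0.0123) and TUBB3 for the difference (-0.16). Without the filter they were STMN2 for RA in siRNF20 cells (-0.36), siRNF20 in RA (-0.0383) and the difference (-0.29), TUBB3 for RA in siLacZ cells (-0.0439) and ISL1 for siRNF20 in DMSO (-0.0740). The stricter filter, which left STMN2 with no row, gave SYT4 at 0.11 for RA in siRNF20 cells and 0.16 for the difference, ISL1 at -0.25, -0.20 and -0.0504 for siRNF20 in RA, siRNF20 in DMSO and the difference, and TUBB3 at -0.33 for the difference. The mean over rows gave DPYSL3 at 0.12 for siRNF20 in DMSO and -0.10 for the difference, and ISL1 at -0.0701 for siRNF20 in DMSO. Leaving out single arrays, STMN2 ranged from -0.19 to 0.97 for RA in siRNF20 cells, and SYT4 from -0.0209 to 0.76 for siRNF20 in RA. For siRNF20 in DMSO the ranges were -0.27 to 0.18 (DPYSL3), -0.47 to 0.40 (L1CAM), -0.27 to 0.0801 (MAP2), -0.21 to 0.11 (NCAM1), -0.22 to 0.94 (STMN2) and -0.42 to 1.498 (VSNL1). For the difference they were -0.0740 to 0.37 (DPYSL3), -0.0777 to 0.26 (ISL1), -0.82 to 0.0536 (L1CAM), -0.0703 to 1.09 (STMN2) and -0.37 to 0.37 (TUBB3). Leaving out the GF120 RA siLacZ array leaves no array in that group, so that its comparisons have no value there. TUBB3 with the 2 rows also listed under MC1R, an alternative chosen after the files were seen, kept its sign and stayed without a call in all 5 comparisons. Quantile normalization changed no call of a marker.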

Other observations

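On the array labelled GF117 RA siLacZ, which was left out above, the markers read 5.17 (DCX), 4.23 (MAP2), 6.73 (TUBB3), 4.995 (STMN2), 6.61 (DPYSL3), 5.92 (NCAM1), 4.33 (L1CAM), 4.39 (SYT4), 5.41 (VSNL1) and 3.10 (ISL1). DCX, MAP2, NCAM1 and ISL1, the markers that rose in siRNF20 cells, lay there below all 4 DMSO arrays, and DPYSL3, which fell, lay below every other array. The pluripotency list had a median of 4.46 on this array, below all others.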
